A study of Mus musculus with 18 samples.

Results

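Vegfa, Vegfb, Vegfc, Pgf, Angpt1 and Adm encode secreted growth factors that act on blood or lymphatic vessels, and are described here as the angiogenic growth factor genes. They were taken by name from the deposited table, with all transcripts of a gene summed, and are 6 of 19630 genes. All 6 passed the filter on low counts, as did 15389 genes in the whole table, and all 6 were followed in every one of 18 mouse libraries in 6 groups of 3. ES cells, pluripotent cells of the early embryo, were cultured on p53-defective feeders, with ATN161 in place of feeders, after the control feeders were removed, or on control feeders. Feeders are cells that support ES cells in culture, and both kinds were also sequenced alone: p53-defective feeders and control feeders. The labels call both embryonic fibroblasts. ATN161 is named in the labels as an inhibitor of integrin α5β1, a fibronectin receptor. The labels give no allele or agent behind the p53 defect, no strain or age, no dose or time of ATN161, and do not say how the feeders were removed. ES cells on either feeder were taken here to be a mixture with their feeders.

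Vessels grow when secreted ligands act on receptor tyrosine kinases of endothelial cells. VEGF-A, the product of Vegfa, binds VEGFR1 (Flt1) and VEGFR2 (Kdr) and is the main mitogen of blood endothelium, while VEGF-B and placental growth factor (Pgf) bind VEGFR1 and the neuropilins. VEGF-C binds VEGFR3 (Flt4) and is known for lymphatic growth, angiopoietin 1 activates TIE2 (Tek) and steadies vessels, and adrenomedullin is a peptide that acts through Calcrl with a Ramp subunit. Vegfa and Adm are textbook targets of the hypoxia-inducible factors (HIF), and fibroblasts are a common source of Vegfa, Vegfc and Angpt1.

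The groups were checked against their labels first. The 8 ES cell markers summed to 289 to 427 CPM (TMM-scaled counts relative to library size) with p53-defective feeders, 5620 to 5849 CPM with ATN161, 4262 to 4396 CPM after feeder removal and 3235 to 3365 CPM on control feeders, against 0.635 to 1.47 CPM in p53-defective feeders and 0.694 to 1.19 CPM in control feeders. Genes specific for ES cells (409 genes) had a median level of 7.46% ± 0.64 in ES cells on p53-defective feeders and 79.9% ± 0.47 in ES cells on control feeders, as a percentage of ES cells after feeder removal (SD, n = 3 each). Genes specific for feeders (52 genes) stood at 52.0% ± 2.6 of their mean feeder level in ES cells on p53-defective feeders and 8.47% ± 0.32 in ES cells on control feeders. ES cells after feeder removal stood at 5.59% and ES cells with ATN161 at 2.74% of that level. Low values in these groups were fixed by the choice of the set. It held genes at least 8-fold higher in both feeders alone than in these groups. The 8 fibroblast markers, of which 7 reached 1 CPM in p53-defective feeders and 8 in the other groups, summed to 13580 to 20830 CPM in ES cells on p53-defective feeders, 663 to 733 CPM with ATN161, 3162 to 3677 CPM after feeder removal and 5365 to 5721 CPM in ES cells on control feeders, against 4181 to 6252 CPM in p53-defective feeders and 29160 to 35800 CPM in control feeders. Lum and Postn averaged 0.0601 and 3.06 CPM in p53-defective feeders and 271 and 5915 CPM in control feeders, so the p53-defective feeders went against their label in part of its markers. Lum averaged 137 CPM after feeder removal and 106 CPM on control feeders, and Dcn 403 CPM after feeder removal and 346 CPM on control feeders. Postn (126 and 120 CPM) and Pdgfrb (23.8 and 23.5 CPM) were close in these groups. Lower after removal were Col1a1 (732 and 1516 CPM), Col1a2 (709 and 1163 CPM), Col3a1 (1243 and 2235 CPM) and Thy1 (64.0 and 81.8 CPM). The group labelled as feeder removal thus held RNA of fibroblast markers, and which cells it came from was not tested. The mesothelial markers summed to 1223 to 1803 CPM in p53-defective feeders, with Msln at 775, Upk3b at 458 and Wt1 at 112 CPM, and to 43.5 to 50.7 CPM in control feeders. The macrophage markers summed to 3.999 to 6.192 CPM in p53-defective feeders, with Ptprc, Adgre1, Fcer1g, Tyrobp and C1qa at 0, and to 122 to 168 CPM in control feeders, of which Lyz2 made up 113 CPM. Trp53 RNA, the p53 transcript, averaged 296 CPM in p53-defective feeders and 119 CPM in control feeders. Of 16 p53 target genes tested, 1 was higher and 14 were lower in p53-defective feeders than in control feeders, where 35.9% of all genes were called higher and 38.4% lower. Library totals were 15122721 to 19833404 counts, so that 1 count was at most 0.0661 CPM, and replicates correlated at 0.9892 to 0.9953 across genes. They were not equally alike: squared differences relative to counting noise ran from 1.94 to 42.14 over pairs of replicates. In p53-defective feeders this was 3.15 for libraries 1 and 2, and 27.28 and 22.98 for the pairs with library 3. The 42.14 belonged to libraries 2 and 3 of ES cells on p53-defective feeders.

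On GRCm38.p6, Vegfa (Entrez 22339) lies at chr17:46016993-46032377 on the minus strand, Vegfb (22340) at chr19:6982472-6987651 on the minus strand, Vegfc (22341) at chr8:54077532-54186454 on the plus strand, Pgf (18654) at chr12:85166637-85177785 on the minus strand, Angpt1 (11600) at chr15:42424667-42676977 on the minus strand, and Adm (11535) at chr7:110627657-110629820 on the plus strand. Promoters of 5 of the 6 genes were matched by symbol in the RefSeq promoter table of that build. Because Vegfa and Adm are known HIF targets, the 250 bases before each start were searched on both strands for ACGTG and GCGTG, the core of the HIF binding site. The promoters of Vegfa, Pgf and Adm, the matched genes whose levels spanned the widest range over the groups, are shown 5′ to 3′ on the strand of the gene, at chr17:46032378-46032627 for the upstream start of Vegfa, chr12:85177314-85177563 for the upstream start of Pgf and chr7:110627407-110627656 for Adm, with matches in capitals (CACGC is GCGTG read on the other strand):
Vegfa: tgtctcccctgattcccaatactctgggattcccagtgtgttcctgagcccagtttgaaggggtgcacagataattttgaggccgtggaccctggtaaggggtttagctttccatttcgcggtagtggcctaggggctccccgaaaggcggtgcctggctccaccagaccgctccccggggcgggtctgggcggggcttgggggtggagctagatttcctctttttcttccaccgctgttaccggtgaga
Pgf: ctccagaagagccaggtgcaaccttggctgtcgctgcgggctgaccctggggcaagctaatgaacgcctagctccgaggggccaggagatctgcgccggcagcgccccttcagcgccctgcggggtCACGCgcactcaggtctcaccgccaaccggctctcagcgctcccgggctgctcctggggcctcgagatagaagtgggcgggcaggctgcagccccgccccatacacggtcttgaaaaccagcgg
Adm: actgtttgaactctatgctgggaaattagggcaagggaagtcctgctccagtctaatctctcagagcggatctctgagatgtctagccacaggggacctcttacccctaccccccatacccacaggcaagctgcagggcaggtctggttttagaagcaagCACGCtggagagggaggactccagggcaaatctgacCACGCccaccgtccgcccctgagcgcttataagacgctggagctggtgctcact
The window of Adm held 2 matches, both CACGC, that of Pgf held 1 and that of Vegfa held 0. The Vegfb window held 2 matches and the Vegfc window held 0, while second starts of Vegfa and Pgf held 2 and 0. Of 32851 promoter windows of this length, 38.6% held at least 1 match and 16.7% at least 2, so these counts do not set the genes apart. A match is a description of the letters only, and no match says nothing of sites outside the window.

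Without ES cells, the feeders differed in every one of the 6 genes (the comparison asks what sets the p53-defective feeders apart on their own). Vegfa and Pgf were higher in p53-defective feeders, and Vegfb, Vegfc, Angpt1 and Adm were lower. Angpt1 was not detected in any library of p53-defective feeders. The 2 genes that rose and the 4 that fell compare with 35.9% of all genes called higher and 38.4% called lower (calls use the quasi-likelihood test of edgeR, at 0.05 after Benjamini-Hochberg adjustment), and the members' median log2 fold change was -1.78, against -0.01 over all genes tested. In bulk RNA, fewer cells of a type and less RNA per cell cannot be told apart.

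Among the ligands of VEGFR1, Vegfa reached 804, 783 and 748 CPM in p53-defective feeders, against 288, 324 and 237 CPM in control feeders. All 3 p53-defective libraries lay far above the control libraries (log2 fold change 1.46 ± 0.09 SE, adjusted p = 3.22e-12). Pgf had 8.19, 10.4 and 8.28 CPM in p53-defective feeders and 3.73, 4.11 and 5.33 CPM in control feeders, without overlap (1.03 ± 0.14, adjusted p = 1.05e-06). Vegfb went the other way, with 22.6, 22.6 and 26.1 CPM in p53-defective feeders and 45.0, 43.0 and 44.7 CPM in control feeders. The highest p53-defective library stood well under the lowest control library (-0.90 ± 0.08, adjusted p = 8.85e-10).

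The lymphatic factor Vegfc had 4.13, 3.87 and 4.91 CPM in p53-defective feeders, against 27.8, 25.4 and 28.8 CPM in control feeders (-2.67 ± 0.11, adjusted p = 5.73e-16). Angpt1 had 0 counts in all 3 libraries of p53-defective feeders, against 184, 172 and 193 counts (10.4, 9.94 and 11.2 CPM) in control feeders. With 3 counts taken as the limit for the whole group, Angpt1 was at least 173-fold lower in p53-defective feeders (adjusted p = 3.38e-14). Adm had 3.62, 6.87 and 4.598 CPM in p53-defective feeders and 28.7, 30.1 and 45.2 CPM in control feeders, with the third control library standing above the other control libraries (-2.77 ± 0.18, adjusted p = 3.42e-12). The fibroblast, mesothelial and macrophage markers given above moved with the same feeder label, and their part in these differences was not tested.

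**Figure D1:**
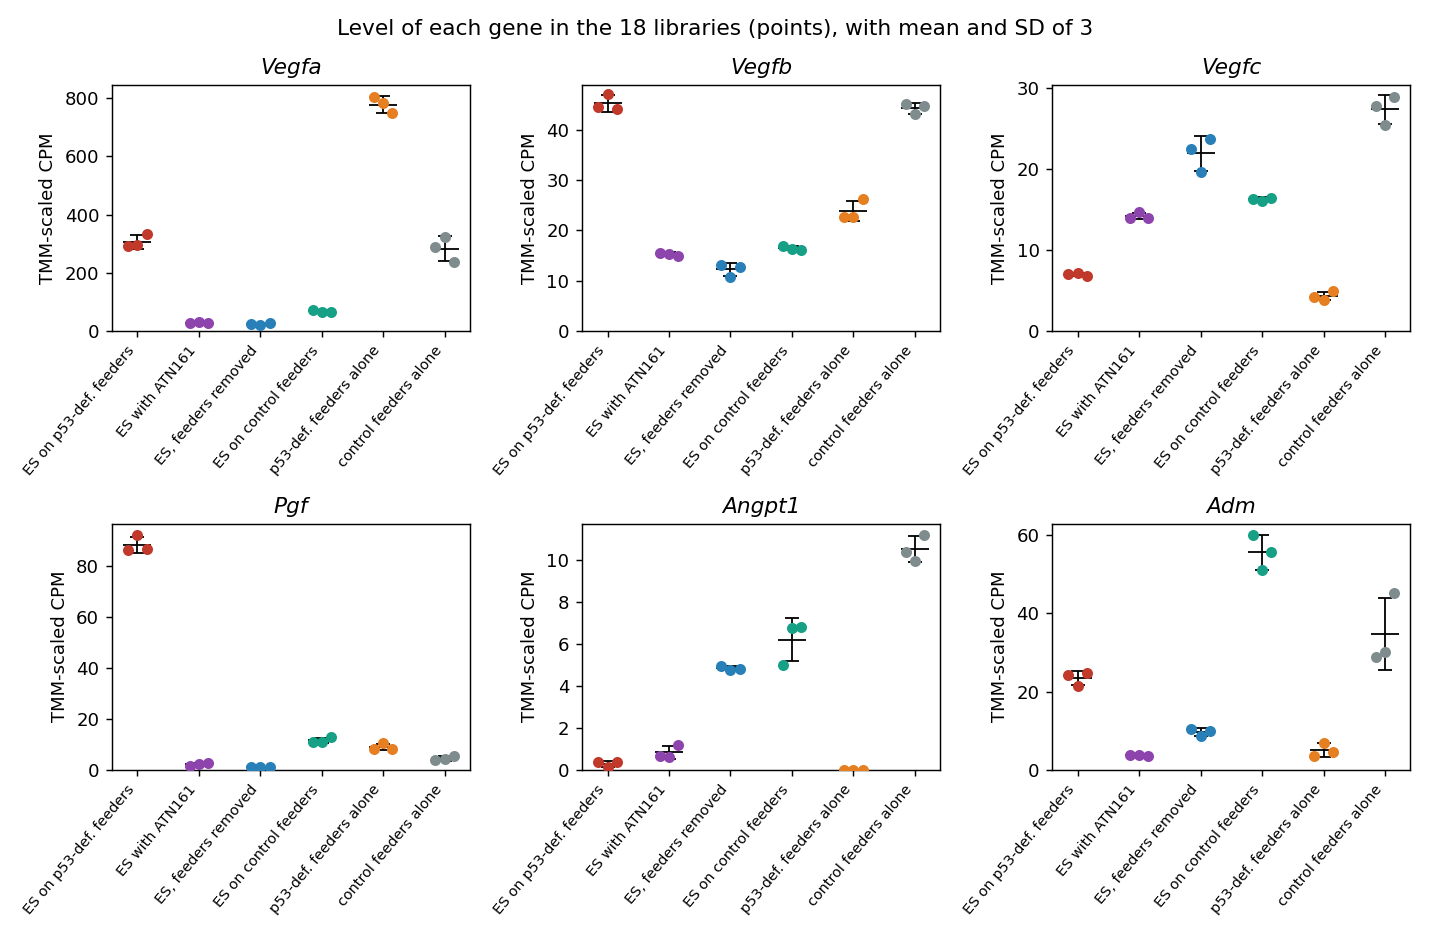
Levels of the 6 genes in TMM-scaled CPM (linear axes from 0) in each of the 18 libraries, with the mean and SD of 3 libraries per group. Vegfa peaked in p53-defective feeders alone, at 748 to 804 CPM, and Pgf in ES cells on p53-defective feeders, at 86.2 to 91.9 CPM.

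In co-culture, Vegfa, Vegfb and Pgf were higher in ES cells on p53-defective feeders than in ES cells on control feeders, and Vegfc, Angpt1 and Adm were lower. Pgf had the largest rise of the 6, at 7.65-fold, and Angpt1 the largest fall, at 21.4-fold. These 3 rises and 3 falls compare with 36.6% of all genes called higher and 46.7% called lower, and the median of the 6 was 0.12, against -0.18 over all genes.

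Pgf had 86.2, 91.9 and 86.3 CPM in ES cells on p53-defective feeders, against 10.85, 10.96 and 12.75 CPM in ES cells on control feeders (2.94 ± 0.11, adjusted p = 1.57e-16). The replicates lay close together in both groups and did not overlap. Vegfa had 290, 296 and 335 CPM in ES cells on p53-defective feeders and 71.8, 64.6 and 66.6 CPM in ES cells on control feeders (2.18 ± 0.10, adjusted p = 3.73e-15). Vegfb had 44.5, 47.1 and 44.1 CPM in ES cells on p53-defective feeders and 16.9, 16.3 and 16.1 CPM in ES cells on control feeders, again with no overlap (1.46 ± 0.08, adjusted p = 1.56e-13).

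Vegfc had 7.04, 7.11 and 6.71 CPM in ES cells on p53-defective feeders and 16.25, 16.01 and 16.44 CPM in ES cells on control feeders (-1.22 ± 0.10, adjusted p = 1.71e-10). Angpt1 was close to its detection limit in ES cells on p53-defective feeders, with 6, 2 and 6 counts or 0.364, 0.125 and 0.357 CPM, against 5.01, 6.77 and 6.81 CPM in ES cells on control feeders (-4.42 ± 0.28, adjusted p = 5.45e-12). Adm, which was lower in both settings with p53-defective feeders, had 24.1, 21.5 and 24.8 CPM in ES cells on p53-defective feeders and 60.2, 51.3 and 55.7 CPM in ES cells on control feeders (-1.25 ± 0.15, adjusted p = 5.76e-08). The direction for Vegfc and Adm depended on the scaling: on ES-specific genes alone, their log2 fold changes were 2.20 and 2.19, while the median of all genes was 3.24. Relative to that median, Vegfc stood at -1.04 and Adm at -1.05. The level of feeder-specific genes, 52.0% of the feeder level with p53-defective feeders and 8.47% with control feeders, moved with this comparison. So did the mesothelial markers, which summed to 1747 to 1824 CPM with p53-defective and 30.25 to 31.54 CPM with control feeders. The part of either in the differences was not tested.

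The difference between the co-cultures was also tested against the difference between the feeders. Taking the feeder difference away from the co-culture difference left a positive value for all 6 genes (38.8% of all genes were called higher and 34.8% lower), with a median of 1.72 for the 6 and 0.04 for all genes. The log2 value was 0.72 ± 0.13 for Vegfa (adjusted p = 4.22e-05), 2.35 ± 0.11 for Vegfb (adjusted p = 2.71e-14) and 1.90 ± 0.18 for Pgf (adjusted p = 3.32e-09). With TMM scaling, Vegfb was the 1 gene of the 6 that changed direction, lower in p53-defective feeders alone and higher in co-culture. On ES-specific scaling of the co-cultures, Vegfc and Adm were also higher there (2.20 and 2.19), where the median of all genes was 3.24. The value was 1.44 ± 0.15 for Vegfc (adjusted p = 1.12e-08) and 1.53 ± 0.23 for Adm (adjusted p = 3.84e-06), which fell less in co-culture than between the feeders. Angpt1 was also positive (adjusted p = 7.02e-05), but its value rests on a feeder group at 0 counts and gives no size. With library totals in place of TMM, the value for Vegfa was 0.31 and was not called (adjusted p = 0.0502).

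**Figure D2:**
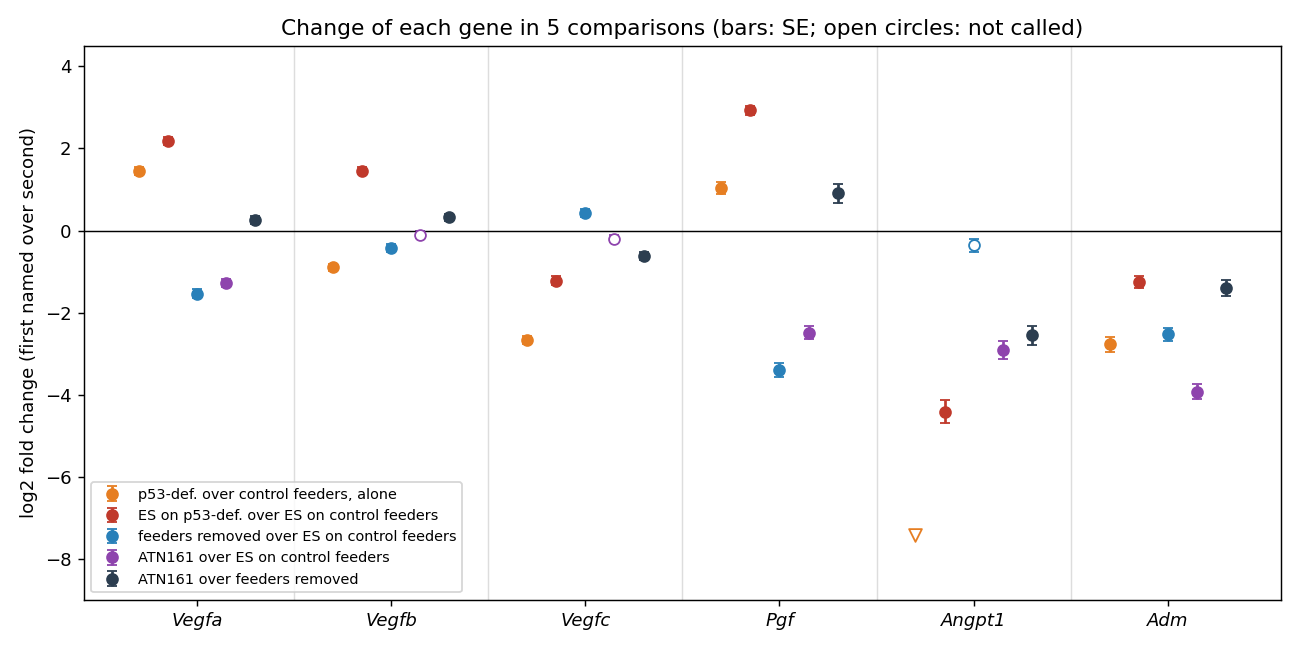
Log2 fold changes with SE of the 6 genes in 5 comparisons from 1 fit of all 18 libraries. Filled circles were called, open circles were not, and the open triangle marks the bound for Angpt1 between the feeders, at least 173-fold lower. Pgf reached 2.94 in the co-culture comparison and -3.40 after feeder removal.

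Each co-culture was then set beside the same feeders alone and ES cells after feeder removal, to see which genes exceeded both. The removed feeders were control feeders, so ES cells taken from p53-defective feeders were not measured. In ES cells on p53-defective feeders, Pgf, Vegfb and Adm lay above both, Vegfa and Vegfc lay between them, and Angpt1 lay between 0 in the feeders and the level after feeder removal. In ES cells on control feeders, Pgf and Adm lay above both. For Vegfb this depended on the unit: the deposited TPM were 45.1 to 51.6 in ES cells on p53-defective feeders and 39.7 to 47.8 in those feeders alone, and overlapped.

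Against p53-defective feeders alone, 5 of the 6 genes were higher and 1 was lower in ES cells on those feeders (46.7% of all genes were called higher and 33% lower), with a median of 1.57, against 0.27 over all genes. Pgf was 9.82-fold higher, at 88.1 ± 3.2 CPM in the co-culture and 8.95 ± 1.25 CPM in the feeders alone (3.30 ± 0.12, adjusted p = 2.06e-16). Adm was higher by 2.21 ± 0.18, at 23.5 ± 1.8 CPM in the co-culture and 5.03 ± 1.67 CPM in the feeders (adjusted p = 2.47e-10). Vegfb was higher by 0.93 ± 0.08 (adjusted p = 4.74e-10) and Vegfc by 0.69 ± 0.12 (adjusted p = 2.07e-05). Angpt1 had 14 counts in the co-culture and 0 in the feeders. With 3 counts taken as the limit for the feeders, it was 4.64-fold higher. That value takes the 14 counts as exact, so it is not a lower bound. Vegfa was lower by 1.34 ± 0.09 on the log2 scale, at 307 ± 24 CPM in the co-culture and 778 ± 28 CPM in p53-defective feeders alone. The fibroblast markers summed to 13580 to 20830 CPM in the co-culture and 4181 to 6252 CPM in the feeders, and the smooth muscle and pericyte markers to 5744 to 8128 CPM in the co-culture and 756 to 1581 CPM in the feeders. The part of these markers in the differences was not tested.

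Against ES cells after feeder removal, 4 of the genes were higher in ES cells on p53-defective feeders and 2 were lower (38.6% of all genes called higher and 47.2% lower; the median of the 6 was 1.59, against -0.21). Pgf differed 80.9-fold (6.34 ± 0.15, adjusted p = 8.61e-20), Vegfa by 3.72 ± 0.11, Vegfb by 1.89 ± 0.09 and Adm by 1.28 ± 0.17. Vegfc stood at -1.65 ± 0.10 and Angpt1 at -4.06 ± 0.29, and on ES-specific scaling Vegfc turned to 2.04 and Angpt1 was not called, at -0.40. The median of all genes was 3.47 under that scaling.

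On control feeders, ES cells had 2 of the genes higher and 4 lower than control feeders alone (44.3% of all genes called higher and 39.9% lower; the median of the 6 was -0.76, against 0.08). Pgf averaged 11.5 ± 1.1 CPM in the co-culture and 4.39 ± 0.83 CPM in control feeders (1.39 ± 0.14, adjusted p = 3.09e-09). Adm averaged 55.7 ± 4.4 CPM in the co-culture and 34.7 ± 9.2 CPM in control feeders (0.68 ± 0.14, adjusted p = 0.000127). Both also exceeded ES cells after feeder removal, at 1.08 ± 0.12 CPM for Pgf and 9.64 ± 0.98 CPM for Adm. Vegfa (-2.06 ± 0.10), Vegfb (-1.43 ± 0.08), Vegfc (-0.75 ± 0.09) and Angpt1 (-0.76 ± 0.15) were lower in the co-culture than in control feeders. ES cells after feeder removal had all 6 genes lower than control feeders, with 45.1% of all genes called higher and 40.8% lower, and the falls ran from -0.32 for Vegfc to -3.60 for Vegfa.

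**Figure D3:**
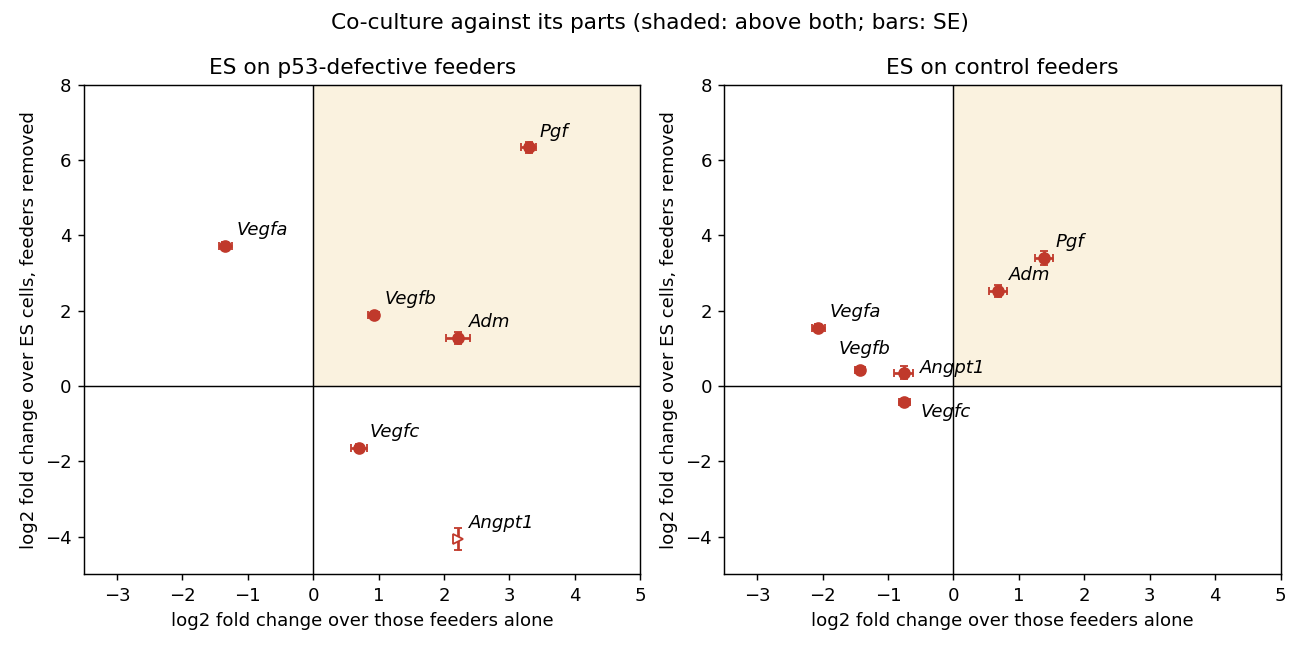
Log2 fold change of each co-culture over its own feeders alone (x) and over ES cells after feeder removal (y), with SE. Genes in the shaded area lay above both: Pgf, Vegfb and Adm with p53-defective feeders, and Pgf and Adm with control feeders. The open triangle marks Angpt1, with 3 counts taken as the limit for p53-defective feeders alone.

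After removal of the control feeders, ES cells had lower Vegfa, Vegfb, Pgf and Adm and higher Vegfc than ES cells on control feeders, and Angpt1 was not called. Feeder-specific genes stood at 5.59% of the feeder level after removal and 8.47% before it, and their part in the differences was not tested. They were chosen to be low after removal, with no such rule on control feeders, so this difference may be in part built in. The 1 rise and 4 falls compare with 25.5% of all genes called higher and 26.5% called lower, and the median of the 6 was -0.98, against -0.01.

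Pgf had 1.21, 0.961 and 1.08 CPM after feeder removal, against 10.85, 10.96 and 12.75 CPM in ES cells on control feeders (-3.40 ± 0.18, adjusted p = 9.49e-12). Adm had 10.4, 8.54 and 9.96 CPM after feeder removal and 60.2, 51.3 and 55.7 CPM on control feeders (-2.53 ± 0.16, adjusted p = 1.53e-10). Both genes were several-fold apart with no library in between. Vegfa had 22.22, 22 and 25.56 CPM after feeder removal and 71.8, 64.6 and 66.6 CPM on control feeders (-1.54 ± 0.10, adjusted p = 3.34e-10). Vegfb changed less, with 13.2, 10.7 and 12.7 CPM after feeder removal and 16.9, 16.3 and 16.1 CPM on control feeders (-0.43 ± 0.09, adjusted p = 0.000342).

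Vegfc was the member that rose, with 22.4, 19.5 and 23.7 CPM after feeder removal and 16.25, 16.01 and 16.44 CPM on control feeders (0.43 ± 0.09, adjusted p = 0.000372). On ES-specific scaling its value was 0.17 and was not called, where the median of all genes was -0.27 and Vegfc stood at 0.44 relative to it. Angpt1 had 4.94, 4.75 and 4.82 CPM after feeder removal and 5.01, 6.77 and 6.81 CPM on control feeders. Its libraries did not overlap, but the change of -0.36 ± 0.16 missed the threshold (adjusted p = 0.0713; 95% interval -0.70 to -0.02). Without the first library of ES cells on control feeders it was called, at -0.54 (adjusted p = 0.0148).

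With ATN161 in place of feeders, Vegfa, Pgf, Angpt1 and Adm were lower than in ES cells on control feeders, and Vegfb and Vegfc were not called. None of the 6 rose, where 33.6% of all genes were called higher and 28% lower, and the median of the 6 was -1.89, against 0.07. Adm had the largest fall of the 6, at 15.3-fold. Feeder-specific genes stood at 2.74% of the feeder level with ATN161 and 8.47% on control feeders, and the fibroblast markers summed to 663 to 733 CPM with ATN161 and 5365 to 5721 CPM on control feeders. Their part in the falls was not tested. The feeder-specific genes were chosen to be low with ATN161, so part of their difference may be built in.

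Adm had 3.69, 3.75 and 3.48 CPM with ATN161, against 60.2, 51.3 and 55.7 CPM in ES cells on control feeders (-3.93 ± 0.18, adjusted p = 5.16e-14). Pgf had 1.52, 2.18 and 2.44 CPM with ATN161 (-2.49 ± 0.15, adjusted p = 5.69e-12), and Vegfa had 27.1, 30.5 and 25.6 CPM (-1.29 ± 0.10, adjusted p = 4.22e-10), each under all libraries on control feeders. Angpt1 had 0.657, 0.608 and 1.195 CPM with ATN161, under the 5.01 to 6.81 CPM of ES cells on control feeders (-2.91 ± 0.22, adjusted p = 4.37e-10). Vegfb had 15.6, 15.4 and 14.8 CPM with ATN161, a change of -0.11 ± 0.09 (adjusted p = 0.286; 95% interval -0.29 to 0.07). Vegfc had 14.0, 14.6 and 14.0 CPM with ATN161, a change of -0.20 ± 0.09 (adjusted p = 0.0704; 95% interval -0.39 to -0.0045). The Vegfc libraries did not overlap, and without any 1 of the libraries on control feeders the change was called, at -0.26 to -0.28.

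ES cells with ATN161 were also set against ES cells after feeder removal. Relative to ES cells after feeder removal, Angpt1, Adm and Vegfc were lower with ATN161, and Vegfb and Pgf were higher. The 3 calls in each direction, Vegfa included, compare with 28.6% of all genes called higher and 26.8% lower, and the median of the 6 was -0.19, against 0.03. Angpt1 had the largest difference, at 0.657, 0.608 and 1.195 CPM with ATN161 and 4.94, 4.75 and 4.82 CPM after feeder removal (-2.55 ± 0.22, adjusted p = 1.08e-08). Adm stood at -1.40 ± 0.20 (adjusted p = 5.58e-06) and Vegfc at -0.63 ± 0.09 (adjusted p = 6e-06). Pgf stood at 0.91 ± 0.23 (adjusted p = 0.00232), at levels of 1 to 3 CPM. Vegfb stood at 0.32 ± 0.09 (adjusted p = 0.00448), was not called without the second library after feeder removal (0.21, adjusted p = 0.0779), and was not called on ES-specific scaling (0.16, where the median of all genes was -0.13). Vegfa overlapped between the groups, with 27.1, 30.5 and 25.6 CPM with ATN161 and 22.22, 22 and 25.56 CPM after feeder removal. Its change of 0.25 ± 0.11 passed narrowly (adjusted p = 0.0487) and missed the threshold when any of 4 libraries was left out, both of the first replicates and both of the second. The feeder-specific genes, at 2.74% with ATN161 and 5.59% after feeder removal, moved with this comparison, and their part in it was not tested.

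Over the 6 groups, the levels of the genes had different orders. Vegfa was highest in p53-defective feeders and lowest after feeder removal (33.5-fold apart), with ES cells on p53-defective feeders and control feeders next to each other and overlapping, as were ATN161 and feeder removal. Pgf was highest in ES cells on p53-defective feeders and lowest after feeder removal (81.3-fold), and no neighbours in its order overlapped. Vegfb spanned 3.70-fold, and its top groups, ES cells on p53-defective feeders and control feeders, overlapped. Vegfc and Angpt1 were both highest in control feeders and lowest in p53-defective feeders, and no neighbours overlapped in either order. Adm was highest in ES cells on control feeders and lowest with ATN161 (15.3-fold), where ATN161 and p53-defective feeders overlapped.

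Between genes, levels were compared in the deposited TPM, which take account of transcript length. In p53-defective feeders, Vegfa averaged 452 ± 11 TPM and Vegfb 42.6 ± 4.6 TPM, with Pgf at 11.6 ± 1.5, Adm at 7.77 ± 2.51 and Vegfc at 4.59 ± 0.67 TPM (SD, n = 3). In control feeders, Vegfa was also first, at 176 ± 29 TPM, followed by Vegfb at 81.5 ± 1.5 and Adm at 55.1 ± 14.2 TPM. Pgf, at 67.5 ± 4.9 TPM, was second to Vegfa, at 102 ± 17 TPM, in ES cells on p53-defective feeders. In ES cells on control feeders Adm came first, at 80.5 ± 6.9 TPM, above Vegfa at 34.8 ± 2.4 TPM. Vegfb averaged 21.7 ± 1.0 TPM with ATN161 and 19.7 ± 2.0 TPM after feeder removal, where Vegfc averaged 20.9 ± 1.9 TPM. TPM and TMM-scaled CPM ordered neighbouring groups differently for 3 genes. Vegfa and Vegfb were lower in ES cells on p53-defective feeders, at 102 ± 17 and 47.8 ± 3.4 TPM, than in control feeders, at 176 ± 29 and 81.5 ± 1.5 TPM, where their CPM overlapped. Vegfc averaged 4.38 ± 0.31 TPM in ES cells on p53-defective feeders and 4.59 ± 0.67 TPM in those feeders alone, where it averaged 6.95 ± 0.21 CPM in the co-culture and 4.30 ± 0.54 CPM in the feeders.

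Vegfa makes several proteins by splicing, which differ in how they bind heparan sulfate and so in how far they diffuse. The table held 10 Vegfa transcripts, of which 5 contained a coding exon of 132 bases at chr17:46020991-46021122, part of the heparin-binding region, and 2 lacked it. The other 3 could not be matched to an exon structure, and the match of RefSeq to Ensembl transcripts behind these classes is ambiguous. Transcripts with the exon held 62.9% ± 4.0 of Vegfa counts in ES cells on p53-defective feeders, 79.4% ± 2.0 with ATN161, 58.3% ± 13.5 after feeder removal, 68.0% ± 0.4 on control feeders, 51.7% ± 0.8 in p53-defective feeders and 34.7% ± 2.0 in control feeders. The unmatched transcripts held 13.1% in ES cells on p53-defective feeders, 7.4% with ATN161, 13.7% after feeder removal, 6.6% on control feeders, 26.8% in p53-defective feeders and 38.1% in control feeders, so the shares above move with them. Among matched transcripts, those without the exon made up 14.2% ± 1.0 with ATN161, against 27.2% ± 1.0 on control feeders (exact permutation test, two-sided, p = 0.1, n = 3 each). They made up 29.4% ± 2.6 in p53-defective feeders, against 43.9% ± 1.2 in control feeders (exact permutation test, p = 0.1, n = 3 each). With 3 against 3 libraries, 0.1 is the smallest p this test can give. In ES cells on p53-defective feeders the share was 27.7% ± 3.5, against 27.2% ± 1.0 on control feeders (exact permutation p = 0.9, n = 3 each). Counts of overlapping transcripts are estimates: 7 of the 10 fell into 3 sets with identical values in all libraries.

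**Figure D4:**
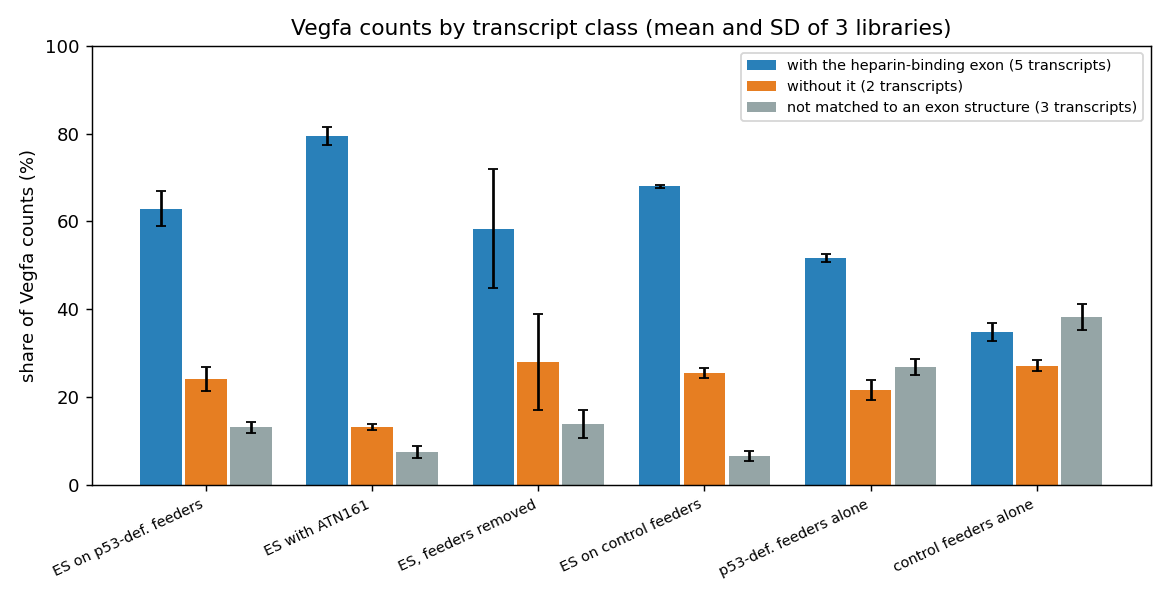
Share of Vegfa counts (%, bars from 0) in transcripts with the 132-base exon, without it, or not matched, as mean and SD of 3 libraries per group. The share with the exon was 79.4% with ATN161 and 34.7% in control feeders, where the unmatched share was 7.4% and 38.1%.

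Pgf and Vegfb had fewer transcripts. The Pgf transcript NM_008827 held 97.8% ± 1.1 of Pgf counts in ES cells on p53-defective feeders and 91.0% ± 7.1 on control feeders. With ATN161 it held 26.1% ± 7.9, and NM_001271705 held 73.9% ± 7.9, at a summed level of 2.05 CPM. After feeder removal they held 57.5% ± 14.8 and 42.5% ± 14.8, at a summed level of 1.08 CPM. The 2 Vegfb transcripts, NM_011697 and NM_001185164, were both present in every group, with NM_011697 at a mean of 54.9% to 68.0%.

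The receptors of these factors were measured beside them. The list counts compare with the shares of all genes called: 35.9% higher and 38.4% lower between the feeders, 36.6% and 46.7% between the co-cultures, 25.5% and 26.5% after feeder removal, and 33.6% and 28% with ATN161. Directions in the co-culture comparison are relative to TMM scaling, and scaling on ES-specific genes shifted the median of all genes there by 3.42 on the log2 scale. Of 5 VEGF receptors and co-receptors, 2 were higher and 3 lower in p53-defective feeders than in control feeders. Flt1, the receptor of Vegfa, Vegfb and Pgf, averaged 36.1 CPM in p53-defective feeders and 112 CPM in control feeders (-1.63 ± 0.09, adjusted p = 9.64e-14), and Flt4, the receptor of Vegfc, averaged 28.6 CPM in p53-defective and 13.2 CPM in control feeders (1.12 ± 0.12). In co-culture, 4 were higher and 1 was lower with p53-defective feeders. The co-receptor Nrp1 averaged 134 CPM in ES cells on p53-defective feeders and 46.0 CPM on control feeders (1.55 ± 0.10, adjusted p = 1.09e-12), and Flt1 averaged 28.9 CPM with p53-defective feeders and 12.1 CPM with control feeders (1.26 ± 0.10). Kdr, the main signalling receptor of Vegfa, stayed low, at 3.51 CPM with p53-defective feeders and 0.613 CPM with control feeders (2.50 ± 0.22). With ATN161, 3 of the 5 were lower than on control feeders and 0 were higher, with Nrp1 at 8.27 CPM with ATN161 and 46.0 CPM on control feeders (-2.47 ± 0.11, adjusted p = 4.4e-14). After feeder removal 4 were lower and 0 higher. Of the 10 endothelial markers, Cdh5 stayed under 1 CPM in every library. The sums of 135 to 181 CPM in ES cells on control feeders, after feeder removal or with ATN161 were mostly Pecam1, at 99.2 to 128 CPM. In these groups 4 of the 10 averaged 1 CPM or more, with Tek at 22.4 to 29.3, Vwf at 9.42 to 12.7 and Esam at 2.3 to 4.6 CPM. In control feeders 5 of the 10 did, among them Erg at 2.77 and Emcn at 1.94 CPM.

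Of 5 angiopoietin-TIE genes tested, 0 were higher and 4 lower in p53-defective feeders, with Angpt2, which can oppose Angpt1 at TIE2, at 0.385 CPM in p53-defective feeders and 19.1 CPM in control feeders (-5.61 ± 0.22, adjusted p = 4.37e-16). In co-culture 2 were higher and 3 lower with p53-defective feeders. Angpt4, another TIE2 ligand, averaged 41.1 CPM in ES cells on p53-defective feeders and 1.70 CPM on control feeders (4.59 ± 0.19), while Tek averaged 0.665 CPM with p53-defective feeders and 22.4 CPM with control feeders (-5.05 ± 0.17). Tek was at 29.3 CPM with ATN161 and 27.1 CPM after feeder removal, the groups with the highest sums of ES cell markers. Of 7 adrenomedullin receptor and processing genes, 0 were higher and 5 lower in p53-defective feeders, among them Ramp2 (-5.64 ± 0.47) and the clearance receptor Ackr3 (-2.01 ± 0.14). In co-culture 3 were higher and 4 lower with p53-defective feeders: Ackr3 averaged 66.7 CPM there and 24.0 CPM on control feeders (1.48 ± 0.12). With ATN161, Ackr3 averaged 5.45 CPM, against 24.8 CPM after feeder removal (-2.19 ± 0.14, adjusted p = 3.45e-11).

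Other ligands and the inhibitors of angiogenesis were counted from lists. Of 14 other angiogenic ligands, 5 were higher and 9 lower in p53-defective feeders than in control feeders. Endothelin 1 (Edn1) averaged 57.5 CPM in p53-defective feeders and 3.39 CPM in control feeders (4.08 ± 0.17), while Fgf2 averaged 3.43 CPM in p53-defective and 52.4 CPM in control feeders (-3.93 ± 0.19) and the VEGFR3 ligand Vegfd 4.01 CPM in p53-defective and 34.7 CPM in control feeders (-3.11 ± 0.20). In co-culture 8 were higher and 5 lower with p53-defective feeders, among them the chemokine Cxcl12, at 1246 CPM with p53-defective feeders and 67.3 CPM with control feeders (4.21 ± 0.29), and Apln, a peptide of sprouting vessels, at 27.3 CPM with p53-defective feeders and 6.31 CPM with control feeders (2.11 ± 0.14). With ATN161, 10 of 14 were lower than on control feeders and 0 were higher, with Apln at -3.61 ± 0.23 and Vegfd at -2.50 ± 0.20. After feeder removal 6 were lower and 1 higher. Of 11 inhibitors tested, 2 were higher and 7 lower in p53-defective feeders, 6 higher and 5 lower in co-culture with them, 10 lower and 0 higher with ATN161 than on control feeders, and 7 lower and 0 higher after feeder removal. Thrombospondin 1 (Thbs1) averaged 171 CPM in p53-defective feeders and 3057 CPM in control feeders (-4.16 ± 0.29), and Timp3, an inhibitor of metalloproteinases that also blocks VEGFR2, averaged 2436 CPM in ES cells on p53-defective feeders and 95.2 CPM on control feeders (4.68 ± 0.12).

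Of 21 HIF target genes other than the 6, 17 were higher and 2 (Eno1 and Bhlhe40) lower in p53-defective feeders than in control feeders (35.9% of all genes higher and 38.4% lower), with a median of 0.90. The stress gene Ndrg1 averaged 443 CPM in p53-defective feeders and 55.6 CPM in control feeders (2.99 ± 0.10, adjusted p = 3e-17), and the HIF hydroxylase gene Egln3 averaged 36.6 CPM in p53-defective and 6.70 CPM in control feeders (2.45 ± 0.12). In co-culture 17 were higher and 3 lower with p53-defective feeders, with a median of 1.80 where all genes had -0.18 (36.6% of all genes higher and 46.7% lower). Ndrg1 averaged 1714 CPM in ES cells on p53-defective feeders and 45.7 CPM on control feeders (5.23 ± 0.11), the glycolytic gene Pgk1 averaged 2886 CPM with p53-defective feeders and 648 CPM with control feeders (2.16 ± 0.09), and Hk2, Kdm3a and Ddit4 were the 3 that were lower. Adm, a HIF target as well, was lower with p53-defective feeders in both comparisons. ES cells on p53-defective feeders also exceeded those feeders alone in 19 of the 21, with 1 lower (46.7% of all genes higher and 33% lower).

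After feeder removal, 18 of the 21 HIF targets were lower and 1 (Kdm3a) was higher than on control feeders, with a median of -0.98. Egln3 averaged 11.2 CPM after feeder removal and 66.8 CPM on control feeders (-2.57 ± 0.11), and the mitophagy gene Bnip3 averaged 32.0 CPM after feeder removal and 126 CPM on control feeders (-1.98 ± 0.10). With ATN161, 16 were lower and 1 (Kdm3a) higher than on control feeders, with a median of -0.97. Between ATN161 and feeder removal 5 were higher and 3 lower, and 13 were not called, with a median of 0.03 (28.6% of all genes higher and 26.8% lower). Of 10 HIF subunits and regulators, 4 were higher and 5 lower in p53-defective feeders, and 4 were higher and 4 lower in co-culture with them. Hif1a averaged 259 CPM in ES cells on p53-defective feeders and 170 CPM on control feeders (0.61 ± 0.06), and Epas1, which encodes HIF-2α, averaged 9.18 CPM with p53-defective feeders and 52.0 CPM with control feeders (-2.50 ± 0.13). After feeder removal, Hif1a averaged 181 CPM, against 170 CPM on control feeders (adjusted p = 0.218, not called).

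**Figure D5:**
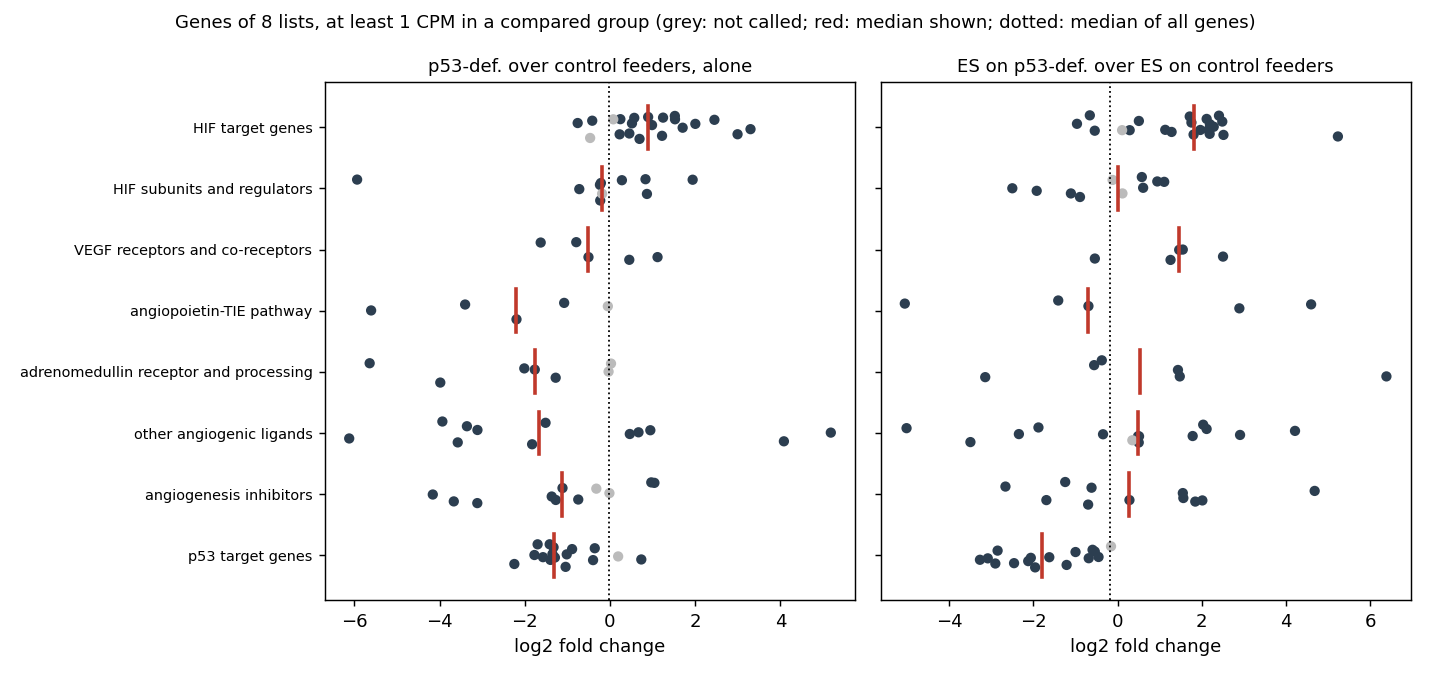
Log2 fold changes of the genes of 8 lists that reached 1 CPM in either group, for p53-defective over control feeders (left) and for ES cells on p53-defective over ES cells on control feeders (right). Points are genes, grey where not called, red bars are medians of the points shown, and dotted lines are medians of all genes. The HIF targets lie mostly above the dotted line in both, and the p53 targets mostly below it.

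Placental growth factor was checked against trophoblast, its best known source. The 8 trophoblast markers summed to 184 to 244 CPM in ES cells on p53-defective feeders, 40.5 to 44.8 CPM with ATN161, 25.2 to 30.0 CPM after feeder removal and 43.9 to 47.9 CPM on control feeders, against 2.41 to 3.18 CPM in p53-defective feeders and 1.39 to 1.74 CPM in control feeders. In ES cells on p53-defective feeders, 3 of the 8 reached 1 CPM. Prl2c2 made up 204 CPM of the sum, against 21.8 CPM on control feeders, and Hand1 averaged 2.30 CPM, against 1.49 CPM. Other markers went the other way. Eomes averaged 1.99 CPM with p53-defective and 20.1 CPM with control feeders, Ascl2 0.629 and 1.07 CPM, and Gcm1 0.221 and 0.758 CPM. With p53-defective feeders, Cdx2 averaged 0.0608 CPM and Tpbpa was at 0. Prl2c2 belongs to the proliferin family of near-identical copies, so its reads cannot be assigned to 1 locus with certainty. Smooth muscle and pericyte markers summed to 5744 to 8128 CPM in ES cells on p53-defective feeders, 115 to 135 CPM with ATN161, 128 to 165 CPM after feeder removal and 241 to 279 CPM on control feeders, against 756 to 1581 CPM in p53-defective feeders and 1125 to 1201 CPM in control feeders. Most of this sum was Acta2, at 4894 CPM with p53-defective and 132 CPM with control feeders, and Tagln, at 1620 and 82.3 CPM. Cnn1 and Des were higher too, and Myh11 averaged 2.85 and 2.47 CPM. Lower with p53-defective feeders were Cspg4 (2.40 and 19.3 CPM) and Rgs5 (0.344 and 5.28 CPM). Both sums, though not all their members, were higher in ES cells on p53-defective than on control feeders, as Pgf was. Over all 6 groups the order of the sums was not that of Pgf. Their part in its difference between the co-cultures was not tested.

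For each gene, the 3 genes with the most similar pattern were named by Pearson correlation of log2 CPM over the 18 libraries among 11230 genes. The libraries share groups and feeders, so the correlation describes the group levels. Vegfa was most like Ptprs (r = 0.994), Gtpbp2 (0.993) and Kif21b (0.989), and Vegfb was most like Ilk (0.991), Thtpa (0.990) and Acat1 (0.986). Vegfc was most like Kctd12 (0.984), Mest (0.981) and Apod (0.981). Pgf was most like Mmd (0.972), Ube2e2 (0.972) and Gdpd5 (0.969). Angpt1 was most like Irf9 (0.984), Adgrl3 (0.980) and Ebf1 (0.978), and Adm was most like Ssc5d (0.952), Tdrd7 (0.945) and Rgs12 (0.929).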

How the data were processed

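PolyA RNA of 18 mouse libraries in 6 groups of 3 was sequenced (Illumina TruSeq mRNA kit, per the labels' protocols; strand is not given in the sources used here). The authors deposited 1 table of 75416 RefSeq transcripts with estimated counts (expected counts) per library. The deposited TPM were used for levels between genes, and the deposited FPKM and the normalised signal values of the same table were not used. StringTie 1.3.3b, HISAT2 2.1.0, DESeq2 1.2.10 and SAMtools 1.4 and the build mm10 (GRCm38) are listed in the submitters' processing notes. How the counts of overlapping transcripts were shared out is not given in the sources used here.

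Estimated counts were summed per gene (19630 genes, 19482 with a symbol in the RefSeq table; 89.3% of the sums were whole within 0.05) and rounded. edgeR 4.0.16 in R 4.3.3 scaled them by TMM, removed 4241 genes with its low count filter and tested 15389 with a two-sided quasi-likelihood test, with 1 coefficient per group over all 18 libraries and Benjamini-Hochberg adjustment over all genes. SE is the log2 fold change over the square root of F. The procedure was tested on simulated data with known changes. That simulation gave all genes and libraries a common spread, so it does not speak for the uneven spread of these libraries. Shares of Vegfa transcripts were compared by exact permutation. Tables and figures used Python 3.11.15, pandas 2.3.3 and matplotlib 3.10.9. ES-specific and feeder-specific genes were at least 8-fold apart between both feeders alone and both ES groups without feeders (feeder removal and ATN161). They were at 10 CPM or more in the higher groups. The co-cultures were not used to choose them.

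The 6 genes and the lists were chosen with earlier results of these data known. The rule named the 6 genes, up to 4 genes per list by smallest p in a comparison, the receptors of the members and 3 most similar genes each. Vegfd, Thbs1, Apln, Cxcl12 and Hif1a in some comparisons, and Hk2, Kdm3a, Ddit4, Eno1 and Bhlhe40, were named outside it after their values were seen. Alternatives were DESeq2 1.42.0 size factors and its Wald test, limma 3.58.1 with voom, library totals, scaling on ES-specific genes, no filter or a filter of 5 CPM in 3 libraries, a fit of only the groups compared, a replicate block and leaving out each library. Counting identical transcript rows once was added after seeing the data. The labels do not say whether libraries came from separate cultures, and p-values reflect library-to-library spread alone, which may be technical. The intervals of log2 fold changes were built from the SE of the fit and reflect the same spread. The limits from counts, given for Angpt1, cover counting error only.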

Additional observations from a re-analysis of the deposited data

Results flagged for a closer look

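For all 6 genes the difference between ES cells on p53-defective and on control feeders was not the same as the difference between those feeders alone, by the interaction test of edgeR (adjusted p below 0.05). The log2 co-culture difference minus the log2 feeder difference was 0.72 for Vegfa, 2.35 for Vegfb, 1.44 for Vegfc, 1.90 for Pgf and 1.53 for Adm. With TMM scaling, Vegfb was the gene whose direction differed: it stood at 1.46 in co-culture and at -0.90 between the feeders. The value of 6.16 for Angpt1 rests on 0 counts in p53-defective feeders and is not a size. With library totals in place of TMM, Vegfa was at 0.31 and not called. The co-cultures differed in make-up: ES-specific genes stood at 7.46% with p53-defective and 79.9% with control feeders, and feeder-specific genes at 52.0% with p53-defective and 8.47% with control feeders, whose part in these values was not tested. Of all genes, 38.8% were called higher and 34.8% lower in this test.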

How the results depend on the processing

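Of 664 alternatives to a value or count other than leaving out a library, 635 were kept, and so were 453 of 462 that left out a library. A value of a gene was kept if its direction and side of the threshold stayed. A count of genes called was kept if its size stayed within a fixed fold of the main count. The directions of the calls were not part of that rule. Scaling on ES-specific genes, possible only among groups with ES cells, gave all genes a median of 3.24, against -0.18 with TMM, for ES cells on p53-defective over control feeders, and 3.47, against -0.21, over feeder removal. There it reversed Vegfc (2.20) and Adm (2.19) in the first comparison and Vegfc (2.04) in the second, where Angpt1 lost its call (-0.40). It also ended the calls of Vegfc after feeder removal (0.17) and of Vegfa (0.0897) and Vegfb (0.16) between ATN161 and feeder removal. It made calls of Angpt1 after feeder removal (-0.62) and, with ATN161 over control feeders, of Vegfb (-0.54) and Vegfc (-0.62). The share of calls that were higher changed with it to 97.3% against 43.9% for the co-cultures, 97.0% against 45.0% over feeder removal, 17.7% against 49.0% for feeder removal, 8.7% against 54.6% for ATN161 over control feeders and 29.7% against 51.7% for ATN161 over feeder removal. This scaling shifts all genes of a comparison alike: relative to the median of all genes, Vegfc after feeder removal stood at 0.44.

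Vegfa between ATN161 and feeder removal lost its call under DESeq2 size factors (0.24), library totals (0.21), no filter (0.22), the filter of 5 CPM (0.23), identical transcript rows counted once (0.10), limma-voom (0.25) and the DESeq2 Wald test (0.24), and ranged over 0.18 to 0.31 with a library left out. Vegfb there ranged over 0.21 to 0.35. Vegfc with ATN161 over control feeders was called under DESeq2 size factors (-0.21), library totals (-0.32), no filter (-0.28), the filter of 5 CPM (-0.28) and a fit of only the groups compared (-0.28), and ranged over -0.28 to -0.18 with a library left out. Vegfb there was called under library totals (-0.23) and the fit of only the groups compared (-0.20). Angpt1 after feeder removal was called under library totals (-0.43), the filter of 5 CPM (-0.42) and the fit of only the groups compared (-0.36), and ranged over -0.54 to -0.33. Library totals ended the call of Vegfa in the test of co-culture against feeders (0.31). Library totals also moved the share of higher calls to 32.2% for the co-cultures, 38.6% for feeder removal, 42.4% for ATN161 over control feeders, 48.0% for ES cells on p53-defective feeders over those feeders and 40.1% for the test of co-culture against feeders.

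Correlations of same-numbered deviations were weak, from -0.105 to 0.223. Those between the feeders and between ATN161 and feeder removal were all positive. With 3 libraries per group, they do not settle whether replicate numbers pair the samples. With the replicate block, Vegfa between ATN161 and feeder removal was 0.25 and not called (adjusted p = 0.0587 in edgeR), and no other call of the 6 genes changed. Depth limits Angpt1, which had 14 counts in all in ES cells on p53-defective feeders.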
